A study of Polypterus senegalus with 8 samples.

Results

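The vascular miRNAs miR-126, miR-143 and miR-145 were followed in regenerating pectoral fins of the bichir (Polypterus senegalus), a ray-finned fish that rebuilds amputated fins. The members were all entries of the deposited miRNA table numbered as miR-126, miR-143 or miR-145, with any letter, copy or arm. This gave 3 of the 153 miRNAs listed, 1 entry per number, with no second arm or copy of any of them. Bichir pectoral fins were amputated under anesthesia, and small RNA was sequenced from uninjured fins (0 days post-amputation, dpa) and from regenerating fins at 3, 7 and 14 dpa. mRNA was sequenced at the same 4 stages. The fish came from an aquarium supplier, and their strain, age and sex are not given in the sources used here. Each stage is 1 library from pooled tissue (at least 4 tissues), so none of the differences could be checked against replicates and no test between stages was possible. The intervals given are 95% intervals and cover counting error only.

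Blood vessels are lined by endothelial cells and wrapped by smooth muscle cells and pericytes. In zebrafish and mammals, miR-126 is made mainly by endothelial cells, from an intron of egfl7, and it is required for vessel integrity. In the same animals miR-143 and miR-145 are encoded side by side and processed from a shared primary transcript. In mammals both are abundant in vascular and other smooth muscle, where they favour the contractile state. A fin stump loses and regrows vessels while it forms a blastema, the proliferative tissue from which the new fin arises.

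The annotated bichir sequences are shown because the arm label of one of them goes against its sequence and because none of the 3 shares a seed with another. They are written 5′ to 3′ with the seed (bases 2 to 8) in capitals, beside both arms of zebrafish miR-126a, all from the study's sequence supplement.
bichir miR-126: tCGTACCGtgagtaataatgc
bichir miR-143: tGAGATGAagcactgtagct
bichir miR-145: gTCCAGTTttcccaggaatccc
zebrafish miR-126a-3p: tCGTACCGtgagtaataatgca
zebrafish miR-126a-5p: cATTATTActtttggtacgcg
The bichir entry is labelled miR-126a-5p, yet all 21 of its bases were identical to the start of zebrafish miR-126a-3p, against 5 of 21 for zebrafish miR-126a-5p. Its match begins at base 53 of the 84-base zebrafish hairpin, on its 3p side. It is therefore called miR-126 here. The miR-143 entry was identical over 20 of 20 bases to zebrafish miR-143-3p and the miR-145 entry over 22 of 22 bases to zebrafish miR-145-5p. Of the 151 bichir miRNAs with a sequence, no other one carried the seed of any member. Genomic positions of these miRNAs in the bichir were not analysed here.

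The 7 dpa small RNA library stood apart from the others in depth. It held 196763 miRNA reads, whereas the 0, 3 and 14 dpa libraries held 6083774, 3353354 and 6858045 reads, so that the deepest library was 34.9 times the shallowest. Levels are given as CPM, the read count of a miRNA scaled to the same total of miRNA reads in every library. A single read was worth 5.08 CPM at 7 dpa and 0.146 to 0.298 CPM in the other libraries. In the 7 dpa library 20 miRNAs had 3 reads or fewer, and 2 to 7 did so elsewhere. miR-21 alone took 14.5% of miRNA reads at 0 dpa and 52.7 to 62.5% in the 3 regenerating libraries, which lowers the CPM of every other miRNA there. The muscle miRNAs listed further below work the other way. They summed to 247585 CPM at 0 dpa and to 2648 to 22364 CPM in the regenerating libraries, which raises the CPM of the others. Each change is therefore also given relative to the median of the 142 miRNAs whose mean over the libraries reached 10 CPM, which include all 3 members.

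The vascular miRNAs together made up a smaller share of the miRNA pool after amputation than before it. Their reads made up 5.35, 1.06, 0.228 and 0.589% of all miRNA reads at 0, 3, 7 and 14 dpa. The share was lowest at the blastema stage of 7 dpa and stayed well below that of the uninjured fin at 14 dpa. miR-143 made up 58.6 to 93.3% of the reads of the members, so the summed share mainly follows it. In a share of reads from whole tissue, fewer vascular cells, less of these miRNAs per cell and more of other miRNAs cannot be told apart.

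miR-126, the endothelial member, was represented by 47427, 2196, 44 and 2717 reads at 0, 3, 7 and 14 dpa. These are 7796, 655, 224 and 396 CPM, with an interval of 162 to 300 CPM on the 44 reads at 7 dpa. The uninjured fin was highest, and all 3 regenerating libraries lay far below it. Among all 153 miRNAs it ranked 26th, 58th, 109th and 64th at the same stages.

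miR-143, the more abundant of the smooth muscle pair, had 261618, 33262, 263 and 37541 reads at 0, 3, 7 and 14 dpa. Its levels were 43003, 9919, 1337 and 5474 CPM, with an interval of 1180 to 1508 CPM at 7 dpa. It was the most abundant member in every library, and it followed the same order as miR-126 with a smaller distance between 0 and 3 dpa. Among all miRNAs it ranked 6th in the uninjured fin and 10th, 65th and 23rd in the regenerating libraries of 3, 7 and 14 dpa.

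miR-145, the cluster partner of miR-143 in zebrafish, had 16330, 203, 142 and 134 reads at 0, 3, 7 and 14 dpa. These correspond to 2684, 60.5, 722 and 19.5 CPM, with intervals of 52.5 to 69.5 CPM on the second value, 608 to 851 CPM on the third and 16.4 to 23.1 CPM on the last. Its order differed from that of both other members, since 7 dpa was the highest of the 3 regenerating libraries and 14 dpa the lowest. The read counts themselves were close in the 3 regenerating libraries, although the 7 dpa library was far shallower. In rank miR-145 was 40th in the uninjured fin and 104th, 82nd and 117th at 3, 7 and 14 dpa.

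**Figure D1:**
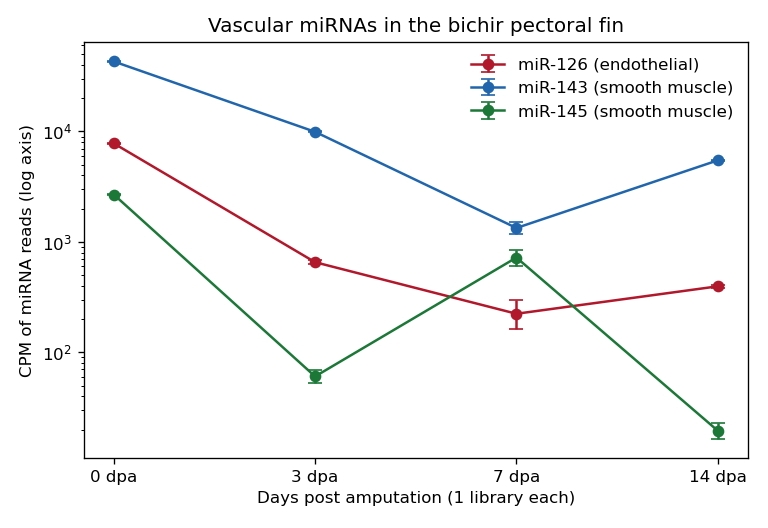
Level of each vascular miRNA in CPM (log axis) at 0, 3, 7 and 14 dpa, 1 library each, with bars for the 95% counting interval. miR-143 and miR-126 are lowest at 7 dpa (1337 and 224 CPM), whereas miR-145 is at 722 CPM there and at 60.5 and 19.5 CPM at 3 and 14 dpa.

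All 3 miRNAs were over 1.5-fold lower than in the uninjured fin at 3, 7 and 14 dpa. At 3 dpa a fall of that size was common, since 66.2% of the 142 miRNAs were over 1.5-fold lower and 18.3% higher. It was less common at 7 dpa, with 38.0% lower and 38.7% higher, and common again at 14 dpa, with 67.6% lower and 14.1% higher. Over all miRNAs 27.5% were lower at every one of the 3 stages. Changes are differences of log2(CPM + 1), a scale that understates changes of low miRNAs.

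miR-126 was 11.9-fold lower at 3 dpa than at 0 dpa, a log2 change of -3.57 (interval -3.63 to -3.51). It was 34.9-fold lower at 7 dpa, with a log2 change of -5.12 (-5.58 to -4.69), and 19.7-fold lower at 14 dpa, with -4.30 (-4.35 to -4.24). The median miRNA changed by -1.35, 0.21 and -1.43 at the same stages. Relative to that median, miR-126 stood at -2.22, -5.33 and -2.87. It was the 13th, 8th and 16th lowest of 142 at 3, 7 and 14 dpa, near the bottom of the range each time.

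miR-143 was 4.34-fold lower at 3 dpa than at 0 dpa (log2 change -2.12, interval -2.13 to -2.10). Relative to the median miRNA this was -0.76, and miR-143 was the 48th lowest of 142. At 7 dpa miR-143 was 32.2-fold lower (-5.01, interval -5.19 to -4.83), which is -5.22 relative to the median and the 9th lowest, next to miR-126. At 14 dpa it was 7.86-fold lower (-2.97, interval -2.99 to -2.96), or -1.55 relative to the median.

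miR-145 was the member furthest below its 0 dpa level at 3 and 14 dpa and the nearest to it at 7 dpa. It was 44.3-fold lower at 3 dpa than at 0 dpa (log2 change -5.45, interval -5.65 to -5.25) and 137-fold lower at 14 dpa (-7.03, interval -7.27 to -6.80), the 5th and the 3rd lowest of the 142 miRNAs. At 7 dpa it was 3.72-fold lower (-1.89, interval -2.14 to -1.66), the 33rd lowest. Relative to the median miRNA it stood at -4.09, -2.11 and -5.61 at 3, 7 and 14 dpa.

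**Figure D2:**
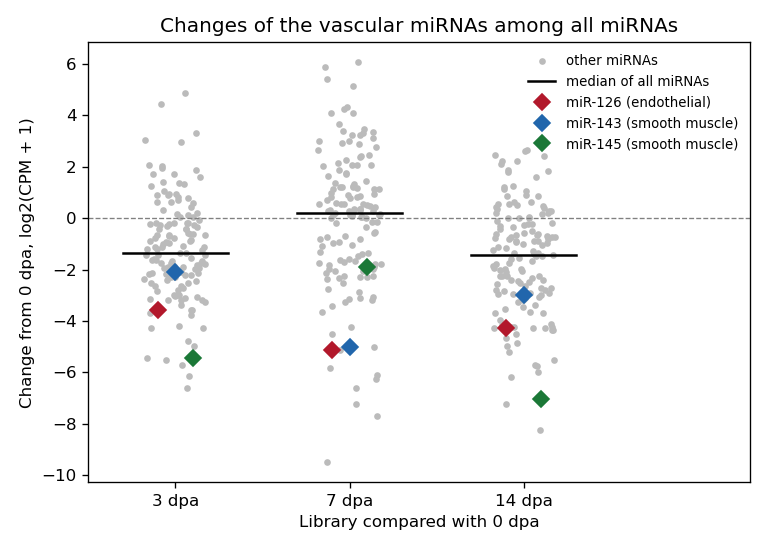
Change of every miRNA from 0 dpa (difference of log2(CPM + 1)) at 3, 7 and 14 dpa, with grey points for the other miRNAs, a black line for the median of all 142 and diamonds for the vascular miRNAs. All 3 diamonds lie below the median at each stage, and miR-145 lies above the other members only at 7 dpa.

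Other scalings moved these changes without altering the direction of any. Under library totals, totals without miR-21, totals without muscle miRNAs, a trimmed mean of log ratios and a median of ratios, the change of miR-126 ranged over -3.97 to -2.32 at 3 dpa, -5.52 to -4.27 at 7 dpa and -4.67 to -2.75 at 14 dpa. For miR-143 the ranges were -2.51 to -0.87, -5.41 to -4.15 and -3.35 to -1.43 at 3, 7 and 14 dpa. For miR-145 they were -5.85 to -4.21, -2.30 to -1.04 and -7.41 to -5.53. The share of all miRNAs counted as lower moved more, over 39.4 to 73.2% for 3 dpa, 30.3 to 40.8% for 7 dpa and 39.4 to 71.8% for 14 dpa.

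Between regenerating stages, miR-145 moved against miR-126 and miR-143. At 7 dpa miR-145 had 722 CPM, against 60.5 CPM at 3 dpa, an 11.9-fold higher level (log2 change 3.55, interval 3.24 to 3.87). miR-126 was 2.93-fold lower at 7 dpa than at 3 dpa (-1.55) and miR-143 was 7.42-fold lower (-2.89). Of all miRNAs 57.7% were over 1.5-fold higher at 7 dpa than at 3 dpa and 26.1% were lower by library totals. This split depends on the scaling, with 36.6% higher and 47.9% lower under the trimmed mean and 41.5% higher and 43.7% lower under the median of ratios.

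At 14 dpa miR-145 had 19.5 CPM, against 722 CPM at 7 dpa, a 36.9-fold lower level (log2 change -5.14, interval -5.48 to -4.79). miR-126 was 1.77-fold higher at 14 dpa than at 7 dpa (0.82) and miR-143 was 4.10-fold higher (2.03). By library totals 60.6% of miRNAs were lower and 27.5% higher at 14 dpa than at 7 dpa, but 47.2% were lower and 42.3% higher under the trimmed mean and 44.4% and 43.7% under the median of ratios. The course of miR-145, higher at 7 than at 3 dpa and lower again at 14 dpa, was shared with 54.9% of miRNAs by library totals, while 21.8% took the opposite course, as miR-126 and miR-143 did. Under the trimmed mean these shares were 35.2 and 39.4%, and under the median of ratios 38.0 and 38.7%, so which course was the more common depends on the scaling.

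The directions of all 3 members in both comparisons were the same under each of the scalings named above. At 7 dpa against 3 dpa the difference of miR-145 on the log2(CPM + 1) scale corresponded to between 4.01-fold and 11.7-fold higher, while that of miR-126 ranged over -3.11 to -1.55 and that of miR-143 over -4.45 to -2.89. At 14 dpa against 7 dpa miR-145 ranged over -5.14 to -3.50, miR-126 over 0.82 to 2.50 and miR-143 over 2.03 to 3.71. The swing of miR-145 was not the widest in the table. A larger rise at 7 dpa against 3 dpa was seen for 32 miRNAs, and a larger fall at 14 dpa against 7 dpa for 15. Leaving out the 7 dpa library, all 3 members were over 1.5-fold lower at 14 dpa than at 3 dpa, as were 41.5% of all miRNAs. These changes were -0.72 for miR-126, -0.86 for miR-143 and -1.58 for miR-145, which was 3.10-fold lower. The count of 3 became 1, miR-145 alone, under the median of ratios, where 31.7% of all miRNAs were lower and 33.1% higher.

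The change at 7 dpa against 3 dpa moved with the level at 3 dpa over the whole table, and both values share the 3 dpa library. The level classes were chosen after the values were seen. Of the 49 miRNAs under 100 CPM at 3 dpa, where miR-145 lay, 36 were over 1.5-fold higher at 7 dpa, with a median change of 2.97. Of the 43 miRNAs at 100 to 1000 CPM, where miR-126 lay, 32 were higher, with a median of 1.90, and miR-126 was among the 6 that were lower. Of the 50 miRNAs at 1000 CPM or more, where miR-143 lay, 14 were higher and 23 lower, with a median of -0.27. Some miRNAs of the lowest class reached the mean of 10 CPM only through their 7 dpa value. With the mean taken without the 7 dpa library, a choice made after seeing the data, that class held 46 miRNAs, of which 33 were higher, with a median of 2.73, and the other classes were as given. The part of library depth in these changes was not tested.

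**Figure D3:**
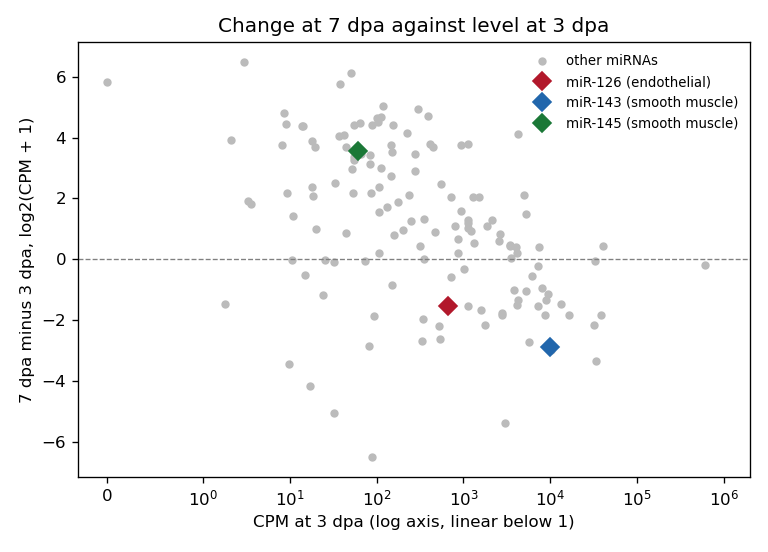
Change at 7 dpa against 3 dpa (difference of log2(CPM + 1)) plotted over the level at 3 dpa in CPM (log axis, linear below 1) for 142 miRNAs, with diamonds for the vascular miRNAs. miR-145, at 60.5 CPM, lies among low miRNAs that are mostly higher at 7 dpa by library totals, whereas miR-126 and miR-143 lie below 0.

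Ratios within a library need no scaling to its total or to miR-21, and they set the endothelial miRNA directly against the smooth muscle pair. A change that differs with level, like that at 7 dpa against 3 dpa, would still enter them. The part of library depth in the ratios was not tested. For each miR-143 read there were 0.181, 0.0660, 0.167 and 0.0724 miR-126 reads at 0, 3, 7 and 14 dpa. The ratio at 3 dpa was 2.75-fold lower than at 0 dpa (log2 change -1.46, interval -1.52 to -1.39), and that at 14 dpa was 2.50-fold lower (-1.32, interval -1.38 to -1.27). At 7 dpa it was not distinguishable from that of the uninjured fin within counting error (-0.12, interval -0.58 to 0.34). The endothelial miRNA was thus lowered more than miR-143 at 3 and 14 dpa, and at 7 dpa the counting interval of their difference lay within 1.5-fold.

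The order of miR-126 and miR-145 turned over at 7 dpa, whereas miR-143 was more abundant than miR-126 in every library. The ratio of miR-126 to miR-145 was 2.90, 10.8, 0.310 and 20.3 at the 4 stages. miR-126 was the more abundant of this pair in 3 libraries, and miR-145 was at 7 dpa only. Unlike those of miR-126 and miR-143, the miR-145 counts were not matched to an exact read sequence. The log2 change from 0 dpa was 1.90 (interval 1.69 to 2.11) at 3 dpa, -3.23 (-3.72 to -2.74) at 7 dpa and 2.80 (2.55 to 3.06) at 14 dpa.

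At 3 and 14 dpa the ratio of the smooth muscle miRNAs to each other moved further than the ratio of miR-126 to either of them. For each miR-145 read there were 16.0, 164, 1.85 and 280 miR-143 reads at 0, 3, 7 and 14 dpa. The ratio was 10.2-fold higher at 3 dpa than at 0 dpa (log2 change 3.35, interval 3.15 to 3.55), 8.65-fold lower at 7 dpa (-3.11, interval -3.41 to -2.82) and 17.5-fold higher at 14 dpa (4.13, interval 3.88 to 4.37). Among reads of the 3 members, miR-145 made up 5.02, 0.569, 31.6 and 0.332% at these stages and miR-143 80.4, 93.3, 58.6 and 92.9%.

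**Figure D4:**
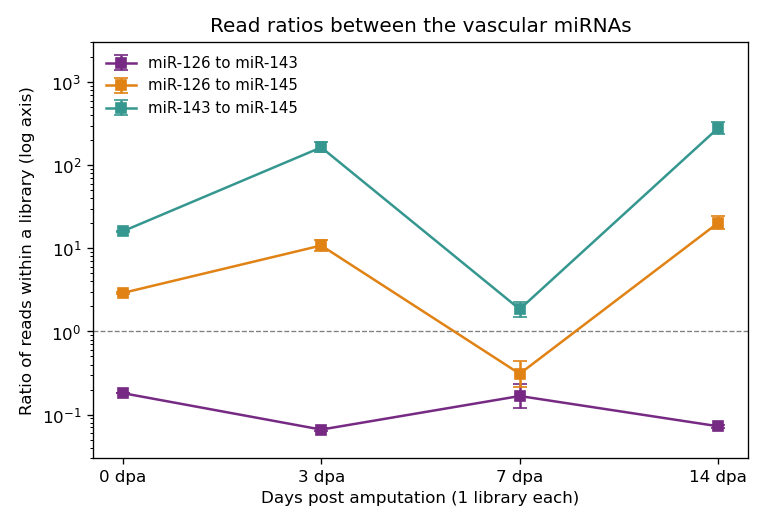
Read ratios between the vascular miRNAs within each library (log axis, dashed line at 1) at 0, 3, 7 and 14 dpa, with bars for the 95% counting interval. Both ratios over miR-145 are above the 0 dpa value at 3 and 14 dpa and below it at 7 dpa, while miR-126 to miR-143 stays between 0.0660 and 0.181.

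The likeness of each profile to those of the other 141 miRNAs was measured as the root mean square difference of log2(CPM + 1) over the 4 libraries after centring, a description over 4 points that share 1 library per stage. The 3 nearest to miR-126 were miR-736 (0.49), miR-143 (0.67) and miR-190a (0.73). Those nearest to miR-143 were miR-454a (0.47), miR-190a (0.61) and miR-101b (0.67). miR-736, miR-190a and miR-454a had 0 reads at 7 dpa, where 3 reads are worth 15.2 CPM, so low levels there could be missed. These 3 also reached the mean of 10 CPM only through their 0 dpa level. The members were highest at 0 dpa too, so the filter itself favours this likeness. miR-736 rests on 467, 6, 0 and 10 reads at 0, 3, 7 and 14 dpa. miR-101b, at 49906, 16446, 4635 and 5937 CPM at 0, 3, 7 and 14 dpa, was the abundant miRNA with a course close to that of miR-143.

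The miRNAs nearest to miR-145 were miR-2184 (0.45), miR-208 (0.58) and miR-454b (0.83). In mammals miR-208 is encoded in myosin heavy chain genes of heart and slow skeletal muscle. miR-2184 had 21584, 224, 147 and 74 reads at 0, 3, 7 and 14 dpa, near the read counts of miR-145 at 3 and 7 dpa and below them at 14 dpa. miR-208 had 2661, 29, 53 and 41 reads and miR-454b 1486, 66, 53 and 38 reads. miR-143, the cluster partner of miR-145 in zebrafish, was the 97th nearest to it, at a difference of 2.86. In turn miR-145 was the 106th nearest to miR-143. Without the 7 dpa library, 3 of the 9 nearest miRNAs were the same, miR-143 was 22nd for miR-126, and miR-145 was 124th for miR-143.

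Marker miRNAs of other tissues changed over the same libraries. The 5 miRNAs of skeletal and heart muscle (miR-1, miR-133, miR-206, miR-208 and miR-499) summed to 247585, 8644, 2648 and 22364 CPM at 0, 3, 7 and 14 dpa. Of these 5 of 5 were over 1.5-fold lower at each stage than at 0 dpa, where 66.2, 38.0 and 67.6% of all miRNAs were lower at 3, 7 and 14 dpa and 27.5% at all of them. The leading muscle miRNA, miR-1b, had 178922, 5652, 854 and 9492 CPM. The sum was lowest at 7 dpa, as were miR-1b and miR-206, and so were miR-126 and miR-143. miR-133a, miR-499 and miR-208 instead had their highest level of the regenerating libraries at 7 dpa, as miR-145 did. miR-133a had 177, 661 and 236 CPM at 3, 7 and 14 dpa, miR-499 had 18.5, 81.3 and 11.5 CPM, and miR-208 had 8.65, 269 and 5.98 CPM (these miRNAs were singled out after their values were seen). Their 7 dpa values rest on 130, 16 and 53 reads. By library totals 54.9% of all miRNAs were over 1.5-fold higher at 7 than at 3 dpa and lower again at 14 dpa. Under the trimmed mean this share was 35.2% and under the median of ratios 38.0%. Per 1000 reads of the muscle list there were 31.5, 75.8, 84.5 and 17.7 reads of miR-126 at 0, 3, 7 and 14 dpa, 174, 1147, 505 and 245 reads of miR-143, and 10.8, 7.00, 273 and 0.874 reads of miR-145. Against this list, miR-143 was higher at 3, 7 and 14 dpa than at 0 dpa. miR-126 was higher at 3 and 7 dpa and lower at 14 dpa, and miR-145 was higher at 7 dpa only. The study describes bichir fins as lacking skeletal muscle. The cells of origin of the miRNAs of the muscle list, and their part in the vascular changes, were not tested.

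Red cell miRNAs (miR-144 and miR-451), which mark blood rather than vessel wall, summed to 278, 7084, 1520 and 804 CPM at 0, 3, 7 and 14 dpa, highest at 3 dpa, where miR-126 was already 11.9-fold lower than at 0 dpa. The 5 leukocyte miRNAs summed to 26221, 39582, 61074 and 15200 CPM and the 8 epithelial ones to 82846, 97701, 167399 and 107528 CPM. The 4 miRNAs of cartilage and connective tissue summed to 35299, 4123, 10022 and 7432 CPM. Within the lists, members did not all move alike. At 3 dpa against 0 dpa, 0 red cell miRNAs were over 1.5-fold lower and 2 higher. For leukocytes this was 1 lower and 3 higher, for epithelium 3 and 2, and for cartilage and connective tissue 4 and 0. At 7 dpa these counts, in the same order, were 1 and 1, 0 and 5, 0 and 3, and 1 and 1. At 14 dpa they were 0 and 1, 4 and 0, 4 and 3, and 3 and 0. Of all miRNAs 66.2, 38.0 and 67.6% were lower at 3, 7 and 14 dpa and 18.3, 38.7 and 14.1% higher. None of these marker miRNAs was at 0 reads in any library. Their part in the vascular changes was not tested.

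A wider list of 25 miRNAs of 14 numbers that are known from vessels but not restricted to them, such as miR-10b, summed to 104673, 30954, 55702 and 26962 CPM at 0, 3, 7 and 14 dpa. At 3 dpa 20 of the 25 were over 1.5-fold lower than at 0 dpa and 3 higher, with a median change of -2.17, where 66.2% of all miRNAs were lower and 18.3% higher. At 7 dpa 13 of 25 were lower and 7 higher (median -0.80), where 38.0% of all miRNAs were lower and 38.7% higher. At 14 dpa 17 of 25 were lower and 2 higher (median -2.54). The share lower was close to the 67.6% among all miRNAs, of which 14.1% were higher. The corresponding medians over all miRNAs were -1.35, 0.21 and -1.43. miR-10b, with the highest mean level of the list over the 4 libraries, had 14469, 9332, 4228 and 12223 CPM, a narrower range than any of the 3 members.

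mRNA libraries of the same stages gave a view of the vessel wall genes. Their transcript counts summed to 38095865 to 43350285 per library. Transcripts were assigned to acta2, myh11a, rgs5a, abcc9, sox7 and klf2b in the study's lists of transcripts lower at 7 dpa. Since those lists were drawn in part from these libraries, the directions at 7 dpa are a description. The choice rests on the 0 dpa library too, which also enters the changes at 3 and 14 dpa, so those directions are likewise a description. Of 16 transcripts of these genes 7 had a mean of at least 1 CPM, and the highest for each gene is given. Over all 43321 transcripts past that filter, 12.8, 10.8 and 11.2% were over 1.5-fold lower than at 0 dpa at 3, 7 and 14 dpa and 65.0, 61.6 and 65.9% higher, with medians of 1.05, 0.84 and 1.06.

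acta2, the smooth muscle actin, had 4398, 30, 41 and 103 reads at 0, 3, 7 and 14 dpa, log2 changes of -5.99, -5.87 and -4.94 from 0 dpa. Actin genes share near-identical coding sequence, so reads of other muscle actins could be counted here. myh11a, the smooth muscle myosin heavy chain, had 1390, 533, 431 and 747 reads (log2 changes -1.28, -1.74 and -0.84). Both smooth muscle transcripts were highest in the uninjured fin, and neither was higher at 7 dpa than at both 3 and 14 dpa. Their choice from lists of transcripts lower at 7 dpa favours both observations, so they cannot be set against the 7 dpa level of miR-145.

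sox7, a transcription factor of endothelial cells, had 1208, 302, 372 and 638 reads at 0, 3, 7 and 14 dpa (log2 changes -1.84, -1.73 and -0.85). klf2b, a flow-responsive endothelial transcription factor, had 2298, 1561, 4433 and 4551 reads (log2 change -0.51 at 3 dpa and 0.79 at 7 dpa). By library totals sox7 was lower in all 3 regenerating libraries than at 0 dpa, and klf2b was under 1.5-fold lower at 3 dpa and higher at 7 and 14 dpa. Under a trimmed mean of log ratios klf2b stood at -1.62 at 3 dpa, -0.16 at 7 dpa and -0.18 at 14 dpa. Its direction at 7 and 14 dpa and the size of its fall at 3 dpa therefore depend on the scaling. sox7 stood at -2.80, -2.56 and -1.95 under the trimmed mean.

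Of the pericyte genes, the potassium channel subunit gene abcc9 had 154, 47, 32 and 95 reads at 0, 3, 7 and 14 dpa (log2 changes -1.14, -1.51 and -0.51). rgs5a, a regulator of G protein signalling, had 371, 535, 305 and 655 reads (0.52, -0.38 and 0.79), and under the trimmed mean it stood at -0.52, -1.18 and -0.31. Relative to the median transcript at 7 dpa, acta2 stood at -6.70, sox7 at -2.57, myh11a at -2.57, abcc9 at -2.34, rgs5a at -1.22 and klf2b at -0.05. The log2(CPM + 1) scale understates changes of low transcripts too. abcc9 had 3.94 CPM at 0 dpa and 0.738 CPM at 7 dpa, against 30.9 and 8.58 CPM for sox7. The order of these values is therefore not an order of fold changes.

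**Figure D5:**
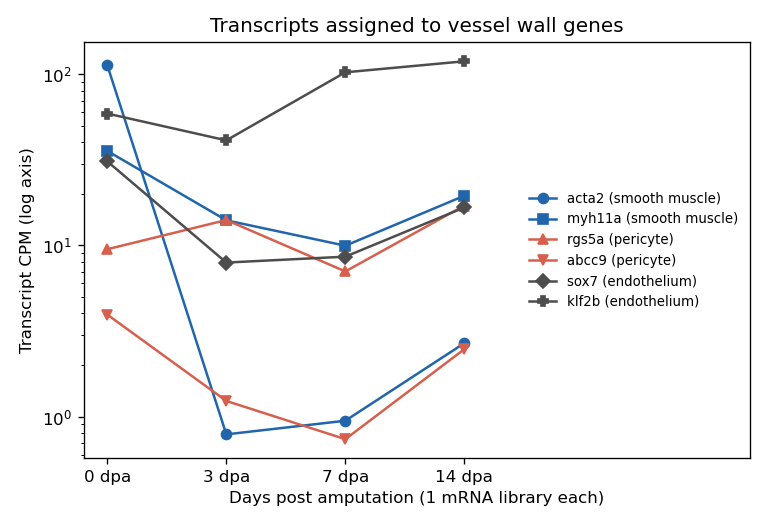
Level of the most abundant transcript of each vessel wall gene in CPM of mRNA reads (log axis) at 0, 3, 7 and 14 dpa, 1 library each, coloured by cell type. acta2, with 4398 reads at 0 dpa and 30 at 3 dpa, shows the widest range, and klf2b is the highest transcript from 3 dpa on.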

How the data were processed

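Bichir RNA was sequenced on an Illumina Genome Analyzer IIx as 4 small RNA and 4 mRNA libraries. For the small RNA, the authors clipped and collapsed reads with the FASTX Toolkit, annotated tags of 20 to 25 bases with miRMiner and miRBase version 21, and analysed tag counts with edgeR. For the mRNA, reads were trimmed with Trimmomatic, assembled with Trinity and counted with RSEM. No genome build is named. Both deposited tables hold log2 values named as CPM. Raising 2 to each value gave whole numbers within 0.01% in all small RNA libraries, with unequal totals, so these were read as log2 of unscaled counts. The mRNA values were read the same way and rounded to whole numbers, but no such check is given for them. In both tables a listed 0 stayed 0. For miR-126 and miR-143 the 4 counts equal those of 1 exact tag, so reads with other ends are not in them, and the tag of miR-145 was not in the list used.

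CPM was computed from column sums. The mRNA table had 132496 entries, and 127736 after repeats were dropped. Changes are differences of log2(CPM + 1), and a change over 1.5-fold was counted. miRNAs needed a mean of 10 CPM and transcripts 1 CPM. With 1 library per group there was no test. The 95% intervals cover counting error only (exact Clopper-Pearson for levels and ratios, exact conditional for changes, normal on the log scale for changes of a ratio). Named genes were the members, the 3 nearest miRNAs of each, miR-21 and the highest transcript of each of 6 vessel genes. The highest miRNA of a list was given with its values for the muscle list and the wider vessel list only. The muscle miRNAs miR-133a, miR-206 and miR-499 were named as well, after their values were seen. The members and lists were chosen with earlier results of these data known. Alternatives were other scalings (a trimmed mean dropping 30% of ratios and 5% of abundances), pseudocounts of 0.1 and 5 CPM, a 2-fold threshold, other filters and reading a listed 0 as 1 read. Python 3.11.15, numpy 2.4.6, scipy 1.17.1, pandas 2.3.3 and matplotlib 3.10.9 were used, and the computation was tested on simulated data.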

Additional observations from a re-analysis of the deposited data

Results flagged for a closer look

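Both read ratios over miR-145 moved one way at 3 and 14 dpa and the other way at 7 dpa, each with its whole counting interval beyond 1.5-fold. The log2 change of the miR-126 to miR-145 ratio from 0 dpa was 1.90 at 3 dpa, -3.23 at 7 dpa and 2.80 at 14 dpa. That of the miR-143 to miR-145 ratio was 3.35, -3.11 and 4.13 at the same stages. The difference between stages was not tested, since each stage is 1 library. The 7 dpa values rest on 44, 263 and 142 reads of miR-126, miR-143 and miR-145. Both ratios also rest on miR-145 counts that, unlike those of the other members, were not matched to an exact tag.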

How the results depend on the processing

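All 3 members stayed over the threshold and lower than at 0 dpa in each of 33 recomputed counts (11 settings at each of 3, 7 and 14 dpa). Over these settings the share of all miRNAs lower was 39.4 to 79.6% at 3 dpa, 30.3 to 96.5% at 7 dpa and 39.4 to 71.8% at 14 dpa. The other filters left the values of the members unchanged, and no member had a listed 0, so these settings could hardly move the count. With no depth scaling, the change of miR-145 at 7 dpa against 3 dpa was -0.51, and at 14 dpa against 3 dpa that of miR-126 was 0.31 and that of miR-143 was 0.17, all turned in direction because that setting compares reads of libraries of unequal depth. The count of members lower at 14 dpa than at 3 dpa was 1 under the median of ratios and 1 with no depth scaling, against 3 by library totals. Of all miRNAs 31.7% were lower under the median of ratios, 16.9% with no depth scaling and 41.5% by library totals. With log2(CPM + 5) the changes of the ratios at 14 dpa against 0 dpa were 2.49 for miR-126 to miR-145 and 3.80 for miR-143 to miR-145. Without the 7 dpa library 3 of 9 nearest miRNAs were shared. For the mRNA at 7 dpa against 0 dpa, 10.8% of transcripts were lower and 61.6% higher by totals, and 22.5% were lower and 29.0% higher under the median of ratios. No paired analysis was possible because each stage has 1 library and the labels give no replicate numbers. No library could be left out within a stage for the same reason. Depth limits the 7 dpa values most, where 3 reads are worth 15.2 CPM.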
